A study of Mus musculus with 5 samples.

Results

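Histone H2A carries a threonine in its C-terminal tail, T120, that is phosphorylated at the centromere in mitosis. The genes described here are 10: kinases reported for that site, relatives of these kinases, and centromere proteins that act downstream of the mark. They were taken by symbol for their known roles, with earlier results of these data known. All 10 were found among the 14454 gene symbols listed. They are Bub1 and the VRK family (Vrk1, Vrk2, Vrk3), and the shugoshins Sgol1 and Sgol2. The rest are the 4 subunits of the chromosomal passenger complex (Aurkb, Incenp, Cdca8, Birc5). RNA was sequenced in 5 NIH/3T3 lines. NIH/3T3 cells are immortalised fibroblasts from mouse embryos, and each of the lines carried an added gene for human H2A fused to EGFP. The groups were 4 T120D lines, numbered 3, 6, 15 and 18, in which an aspartate replaces the threonine and so stands in for a phosphorylated residue, and 1 line with wild-type H2A (wt). All lines were grown in the same serum-containing medium with gentamicin. Whether the lines are single clones, and which promoter drives the transgene, is not given in the sources used here. The labels name no removal of the endogenous mouse H2A genes. The title of the series ties T120 phosphorylation to transformation and cyclin D1. The comparison made here asks whether lines carrying the mimic of the mark differ from the wt line in RNA for these 10 genes.

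As background, BUB1 is a kinase of the spindle checkpoint that sits at kinetochores and phosphorylates T120, and the phosphorylated tail binds shugoshins. Shugoshins bring the phosphatase PP2A, which shields cohesin, the ring that holds sister chromatids together, and they help to place the passenger complex at the inner centromere. In that complex INCENP is the scaffold, survivin (Birc5) and borealin (Cdca8) direct it to centromeres, and Aurora B (Aurkb) is the kinase that corrects faulty attachments to the spindle. VRK1 is a nuclear kinase reported to phosphorylate T120 and the chromatin protein BAF, VRK2 is a related kinase of the endoplasmic reticulum and nuclear envelope, and VRK3 is a pseudokinase. Many mitotic genes of this kind are held down in early cell cycle and switched on toward mitosis through promoter elements named CHR (cell cycle genes homology region) and CCAAT boxes, which bind the factor NF-Y.

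Promoter sequences are shown for 5 of the genes because their RNA levels fell into different patterns between T120D and wt, described below: both called genes (Bub1 and Birc5), 2 that were higher in each T120D line without passing the test (Sgol1 and Cdca8), and Vrk2, whose levels in T120D and wt overlapped. Each window runs from 250 bases before to 50 bases after an annotated start and is given 5′ to 3′ on the strand of the gene, from RefSeq on GRCm38.p6, a later build than the mm9 of the RPKM tables. Capitals mark the searched motifs on either strand, which were the CHR (TTTGAA), its variant TTTAAA, the CCAAT box (CCAAT), 3 E2F elements (TTTCGCGC, TTTGGCGC and GGCGGGAA), and the related hexamer TTCGAA, which was added after the sequences had been read. TTTAAA and TTCGAA read the same on both strands.
Bub1 (chr2:127831810-127832109, minus strand): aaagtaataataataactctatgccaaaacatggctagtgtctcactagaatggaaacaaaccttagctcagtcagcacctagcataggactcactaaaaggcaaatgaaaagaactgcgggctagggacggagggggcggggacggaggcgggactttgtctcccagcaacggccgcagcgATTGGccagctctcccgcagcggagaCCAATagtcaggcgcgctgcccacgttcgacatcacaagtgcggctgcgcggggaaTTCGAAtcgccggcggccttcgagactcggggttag
Birc5 (chr11:117848987-117849286, plus strand): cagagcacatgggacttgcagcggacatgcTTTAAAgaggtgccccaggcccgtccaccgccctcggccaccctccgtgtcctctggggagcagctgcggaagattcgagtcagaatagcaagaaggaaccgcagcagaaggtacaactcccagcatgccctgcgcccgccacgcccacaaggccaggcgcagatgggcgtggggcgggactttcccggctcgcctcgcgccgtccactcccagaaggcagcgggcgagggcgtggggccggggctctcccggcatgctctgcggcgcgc
Sgol1 (chr17:53689266-53689565, minus strand): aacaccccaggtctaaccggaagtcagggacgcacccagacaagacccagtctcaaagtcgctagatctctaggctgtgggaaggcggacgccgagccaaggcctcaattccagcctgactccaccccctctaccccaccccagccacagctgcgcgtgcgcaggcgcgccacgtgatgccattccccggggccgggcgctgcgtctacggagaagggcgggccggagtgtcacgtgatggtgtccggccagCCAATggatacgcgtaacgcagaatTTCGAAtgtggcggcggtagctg
Cdca8 (chr4:124936868-124937167, minus strand): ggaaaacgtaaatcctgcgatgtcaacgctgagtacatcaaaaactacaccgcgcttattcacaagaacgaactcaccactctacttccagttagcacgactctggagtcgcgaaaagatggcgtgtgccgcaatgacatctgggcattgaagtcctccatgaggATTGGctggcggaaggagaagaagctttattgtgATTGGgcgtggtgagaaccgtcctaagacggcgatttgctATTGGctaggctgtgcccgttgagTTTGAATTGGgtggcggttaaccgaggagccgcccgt
Vrk2 (chr11:26593871-26594170, minus strand): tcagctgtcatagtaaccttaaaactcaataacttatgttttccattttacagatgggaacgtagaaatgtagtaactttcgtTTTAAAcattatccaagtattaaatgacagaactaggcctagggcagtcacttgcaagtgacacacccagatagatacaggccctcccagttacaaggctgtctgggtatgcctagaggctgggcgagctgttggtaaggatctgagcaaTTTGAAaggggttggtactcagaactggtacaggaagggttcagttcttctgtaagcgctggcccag

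The Bub1 window held 2 CCAAT boxes on opposite strands, with first bases at -68 and -42 from the start, and TTCGAA at +15. Cdca8, encoding borealin, held 4 CCAAT boxes, all on the opposite strand, at -85, -51, -11 and +19, and a CHR at +14 that shares 1 base with the last of them. At least 4 CCAAT boxes were found in 1.06% of all 32851 promoter windows of that length, and at least 2 in 11.7%. In the Sgol1 window a CCAAT box stood at +3 and TTCGAA at +28. That hexamer occurred in 1.56% of all windows. Birc5 had none of the searched motifs near its start and the variant TTTAAA at -220, a motif of 13.2% of all windows. Vrk2 held a CHR at -17 and TTTAAA at -167. Windows were available for 7 of the 10 genes, 11 windows in all since Vrk1 has 4 annotated starts and Sgol2 has 2. A CCAAT box was in 6 of these 11 windows, against 37.4% of all windows, and a CHR in 5, against 17.9%. By gene, 5 of the 7 had a CCAAT box in at least 1 window and 3 a CHR (Cdca8, Vrk1 and Vrk2), and 3 of the 5 windows with a CHR were starts of Vrk1. None of the 3 E2F elements was found in them. Those exact letters are rare, in 0.323% (TTTCGCGC), 0.514% (TTTGGCGC) and 2.19% (GGCGGGAA) of all windows. Their absence from 11 windows therefore does not show that E2F sites are lacking. A match describes the letters of the window and is not a known binding site.

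**Figure D1:**
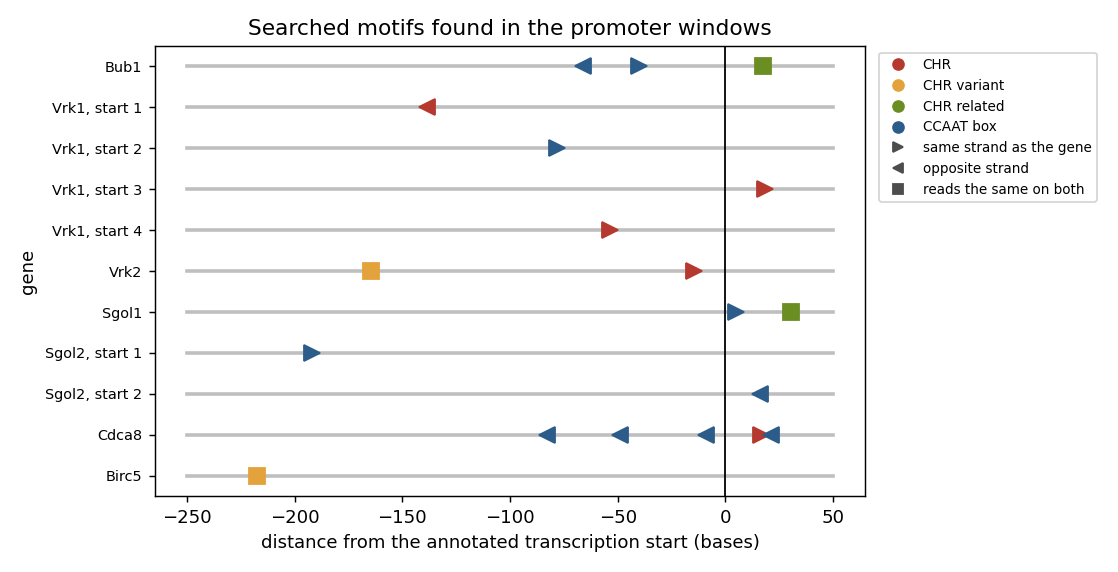
Position of each searched motif in the 11 promoter windows, in bases from the annotated transcription start (vertical line at the start). Colour gives the motif and the symbol its strand relative to the gene. Bub1 has 2 CCAAT boxes within 70 bases of the start, Cdca8 has 4 and a CHR, and Birc5 has a match only at the far end of its window.

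Values are RPKM, read numbers corrected for transcript length and sequencing depth. A comparison of levels between genes depends on the transcript lengths used, which are not given. RefSeq transcripts run from 947 to 3334 bases for Birc5 and from 1509 to 3711 for Vrk1. The ranks of these genes and their ratios to other genes are therefore approximate. The tables give no read counts. From the steps between low values of genes with a single transcript, depth was estimated at 2520000 to 2720000 reads per line, at which 47.5% to 54.2% of such values came out whole to within 0.05 reads (10% by chance). Over the tested genes the SD of the log2 difference between 2 lines was 0.31 to 0.32 among T120D lines 3, 15 and 18, 0.33 to 0.34 between them and line 6, and 0.53 to 0.57 between T120D lines and wt. The wt line thus stood apart from all T120D lines. With 1 wt line, an effect of T120D and a trait of that line cannot be told apart. Whether the T120D lines arose independently of each other was not tested. All 10 fibroblast markers averaged at least 1 RPKM, with sums of 2332 to 2690 RPKM in T120D and 3087 RPKM in wt. Vim and S100a4 made up most of these sums, and single markers differed in both directions: Pdgfra was at 11.5 to 15.1 RPKM in T120D and 43.5 RPKM in wt, Col3a1 at 12.7 to 16.9 in T120D and 45.2 in wt, Fn1 at 120 to 154 in T120D and 376 in wt, and Thy1 at 48.5 to 61.5 in T120D and 20.3 in wt. Their part in the differences of the 10 genes was not tested. Values were available for 3 of 5 epithelial, 3 of 4 endothelial and 2 of 4 haematopoietic markers. They were also available for 2 of 4 skeletal muscle and 4 of 4 neural markers. None of these averaged 1 RPKM, the highest value in any line being 1.46 RPKM. The remaining markers, among them Epcam, Ptprc and Myod1, had no value and were not assessed. Differences are T120D mean minus wt on the log2(RPKM + 1) scale, which understates changes of low genes, tested with limma over the 10052 genes that averaged at least 1 RPKM. A gene was called at a Benjamini-Hochberg adjusted p under 0.05. With 1 wt line the spread comes from the T120D lines alone, and an exact permutation of 1 line against 4 cannot give a one-sided p below 0.2. In bulk RNA a larger share of cells in mitosis and more RNA per mitotic cell cannot be told apart.

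The 10 genes spanned a wide range of levels. In T120D, Birc5 was the highest at 59.5 ± 4.48 RPKM (SD, n = 4), followed by Aurkb, Cdca8 and Incenp at 21.4 ± 1.04, 21.1 ± 2.17 and 17.5 ± 1.49 RPKM. The shugoshins lay below the passenger complex, with Sgol1 at 10.3 ± 1.002 and Sgol2 at 9.12 ± 1.73 RPKM, and Bub1 was at 6.81 ± 0.915 RPKM. The VRK genes were the lowest, at 2.72 ± 0.344 RPKM for Vrk1, 2.22 ± 0.646 for Vrk2 and 1.89 ± 0.469 for Vrk3. The gaps from Birc5 to Aurkb, from Incenp to Sgol1 and from Bub1 to Vrk1 were wider than the spread of the T120D lines, and these 3 steps had the same order in all 5 lines. Aurkb and Cdca8 overlapped, and Aurkb was the higher one in 2 of 5 lines. Sgol1 and Sgol2 also overlapped, with Sgol1 higher in 3 of 5 lines, and so did Vrk2 and Vrk3, with Vrk2 higher in 2 of 5. Cdca8 exceeded Incenp in all 5 lines although their ranges overlapped.

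**Figure D2:**
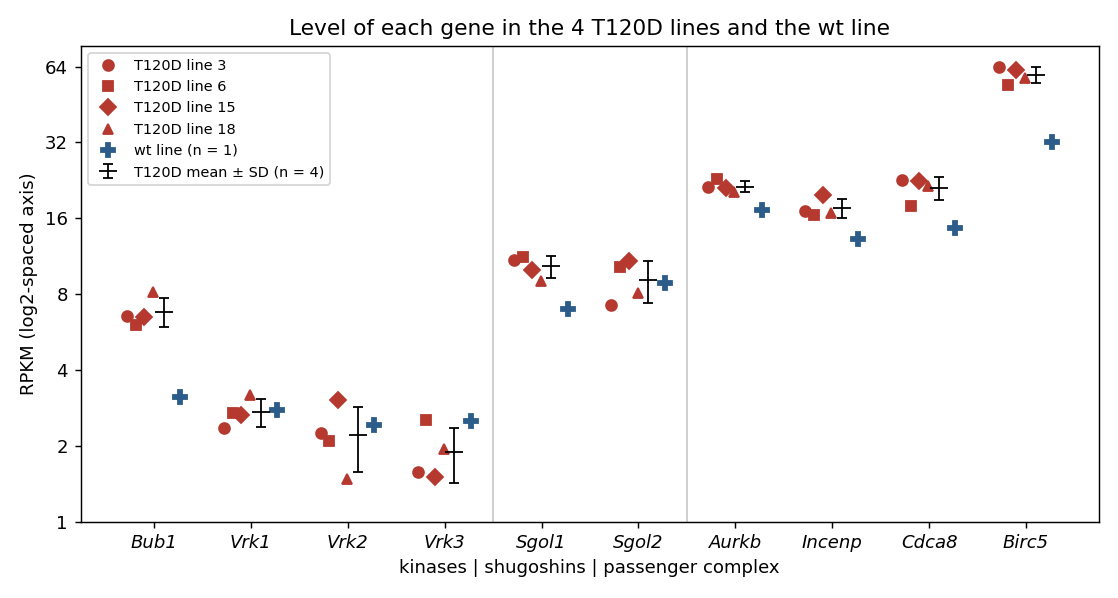
RPKM of each gene on a log2-spaced axis, with the 4 T120D lines as red symbols, their mean ± SD as a black bar, and the wt line as a blue cross to their right. Birc5 and Bub1 lie farthest above wt in T120D, and the 3 VRK genes overlap with wt near 2 to 3 RPKM.

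Of the 10 genes, Bub1 and Birc5 were called higher in T120D and 0 were called lower. Over all tested genes 13.1% were called, 7.65% higher and 5.45% lower. At an unadjusted p under 0.05 in limma, 6 of the 10 were higher and 0 lower, against 15.2% and 13.4% of all tested genes. For those 6 genes (Bub1, Sgol1 and the 4 passenger genes) each T120D line lay above the wt line, as it did for 31.1% of all tested genes, and for the other 4 the groups overlapped. None of the 10 had all T120D lines below wt, against 32.3% of all tested genes. The median log2 difference of the 10 was 0.34, beside -0.02 over all tested genes.

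Among the kinases, Bub1 differed and the VRK genes did not pass the test. Bub1 was at 6.57, 6.05, 6.50 and 8.14 RPKM in T120D lines 3, 6, 15 and 18, against 3.13 RPKM in wt. The lowest T120D line was 1.93 times the wt level and the highest, line 18, was 2.60 times. Limma gave a log2 difference of 0.91 with a 95% confidence interval of 0.47 to 1.36 (SE 0.20, adjusted p = 0.0183), a 2.18-fold difference of mean RPKM. With its single RefSeq transcript of 3421 bases, the level rests on about 56 to 73 reads in the T120D lines and about 29 reads in wt. When genes of low value were kept in the fit, Bub1 was no longer called (limma adjusted p = 0.0616), with the same log2 difference.

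Vrk1 had 2.35, 2.70, 2.64 and 3.19 RPKM in T120D lines 3, 6, 15 and 18, against 2.78 RPKM in wt. The wt line lay inside the T120D range, and the log2 difference was -0.03 (95% confidence interval -0.54 to 0.48; limma adjusted p = 0.95). Vrk2 was the most variable of the 10, with 2.25, 2.10, 3.04 and 1.47 RPKM in T120D lines 3, 6, 15 and 18, against 2.42 RPKM in wt. Its highest T120D line was 2.07 times its lowest, and the log2 difference was -0.11 (95% confidence interval -0.77 to 0.54; limma adjusted p = 0.839). Vrk3 had 1.58, 2.53, 1.50 and 1.95 RPKM in the T120D lines in the same order, against 2.51 RPKM in wt. Only line 6 reached the wt level, and the log2 difference was -0.29 (95% confidence interval -0.91 to 0.32; limma adjusted p = 0.516). These levels rest on about 7 to 15 reads per line for Vrk2 and about 8 to 14 for Vrk3. The upper limits of the VRK intervals lie below the log2 differences of Bub1 (0.91) and Birc5 (0.87). Smaller increases, such as that of Aurkb (0.29), and decreases remain within each interval, so equal expression is not shown. Exons of Vrk2 overlap those of Fancl, and exons of Vrk3 those of Zfp473, on the other strand in the GRCm38 annotation. Since the treatment of strand is not given, reads could be shared. Fancl was at 2.31 to 3.84 RPKM in T120D and 5.09 RPKM in wt, above Vrk2 in all lines but line 15.

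Neither shugoshin gene was called. Sgol1, which protects centromeric cohesin in mitosis, had 11.0, 11.3, 9.99 and 9.05 RPKM in T120D lines 3, 6, 15 and 18, against 7.01 RPKM in wt. All 4 T120D lines lay above wt, by 0.49 on the log2 scale on average (95% confidence interval 0.11 to 0.87, SE 0.17; limma adjusted p = 0.0897). Sgol2, best known for the protection of cohesin in meiosis, was at 7.24, 10.3, 10.9 and 8.09 RPKM in T120D lines 3, 6, 15 and 18, against 8.83 RPKM in wt. Lines 6 and 15 were above wt and lines 3 and 18 below it, and the log2 difference was 0.02 (95% confidence interval -0.47 to 0.52; limma adjusted p = 0.954). Its SD among the T120D lines was 0.25 on the log2 scale, larger than that of 82.4% of 2706 genes of like level. The ratio of Sgol1 to Sgol2 RPKM was 1.51, 1.10, 0.919 and 1.12 in the T120D lines in that order, against 0.794 in wt. RefSeq also lists a related gene, Sgo2b, with which Sgol2 could share reads, and the exons of Sgol2 overlap those of Kctd18 on the other strand (1.60 to 2.71 RPKM in T120D, 4.68 RPKM in wt).

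In the passenger complex all 4 genes were higher in each T120D line than in wt, and Birc5 passed the test. Birc5, encoding survivin, had 63.9, 53.9, 62.2 and 57.8 RPKM in T120D lines 3, 6, 15 and 18, against 32.1 RPKM in wt. The lines were 1.68 to 1.99 times the wt level, a mean log2 difference of 0.87 with a 95% confidence interval of 0.59 to 1.14 (SE 0.12; limma adjusted p = 0.00238). Cdca8 was at 22.6, 17.9, 22.4 and 21.5 RPKM in T120D lines 3, 6, 15 and 18, against 14.7 RPKM in wt. Line 6 was the one nearest to wt. The log2 difference of Cdca8 was 0.49 (SE 0.15) and was not called with all lines (limma adjusted p = 0.071); without line 6 it was 0.56 and called (limma adjusted p = 0.0244). Exons of Cdca8 overlap those of 9930104L06Rik on the other strand, which was at 2.01 to 2.06 RPKM in T120D and 1.75 RPKM in wt. Incenp had 17.1, 16.5, 19.7 and 16.8 RPKM in the T120D lines, against 13.2 RPKM in wt. The mean exceeded wt by 0.38 on the log2 scale (SE 0.15; limma adjusted p = 0.126), with line 15 the highest and the other lines close together. Aurkb had the smallest difference and the tightest T120D lines of the complex, at 21.2, 22.8, 21.1 and 20.4 RPKM in lines 3, 6, 15 and 18, against 17.2 RPKM in wt. On the log2 scale it differed by 0.29 (SE 0.13; limma adjusted p = 0.168), with a coefficient of variation of 4.85% among the T120D lines.

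**Figure D3:**
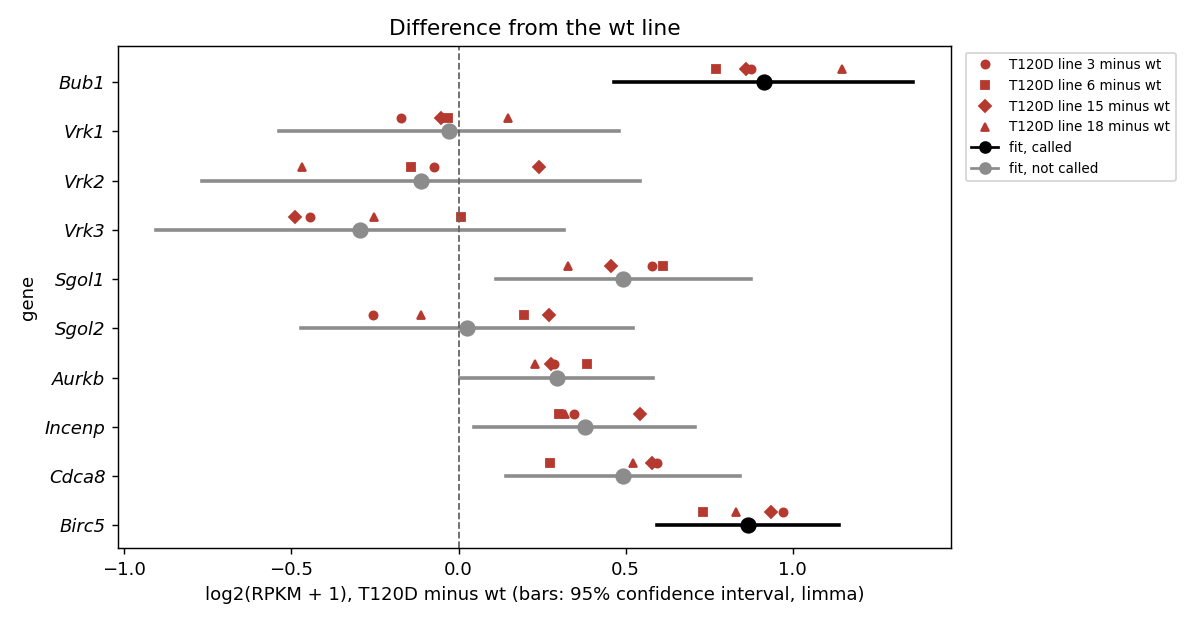
Log2(RPKM + 1) in T120D minus wt for each gene. Round points with bars are the limma estimates with 95% confidence intervals (black if called, grey if not) and red symbols the single T120D lines. The intervals of Bub1 and Birc5 start at 0.47 and 0.59, and those of the VRK genes and Sgol2 span 0.

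By RPKM the subunits were at unequal levels of RNA, and the size of each ratio depends on the transcript lengths used. Birc5 was 3.01, 2.36, 2.95 and 2.84 times Aurkb in T120D lines 3, 6, 15 and 18, against 1.86 times in wt. All T120D lines thus had a higher Birc5 to Aurkb ratio than wt. The ratio of Incenp to Aurkb was 0.724 to 0.935 in T120D and 0.767 in wt, and that of Cdca8 to Aurkb was 0.786 to 1.07 in T120D and 0.85 in wt, so for both the wt line lay within the T120D range. Birc5 to Incenp ranged from 3.15 to 3.74 in T120D, against 2.43 in wt. These ratios are descriptions and were not tested. Line 6 held the lowest T120D value for Bub1, Incenp, Cdca8 and Birc5 and the highest for Vrk3, Sgol1 and Aurkb, whereas line 18 was highest for Bub1 and Vrk1 and lowest for Vrk2, Sgol1 and Aurkb.

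**Figure D4:**
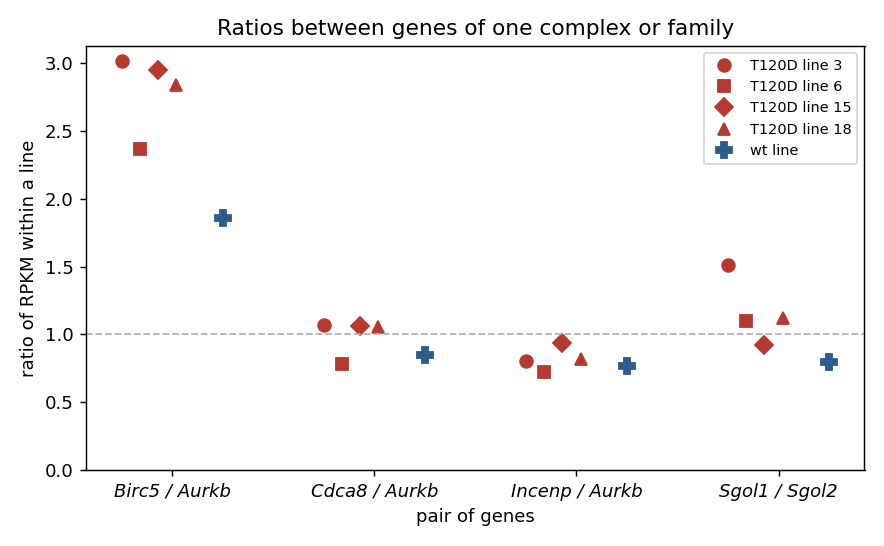
Ratio of RPKM between genes of one complex or family within each line, with the T120D lines in red and the wt line in blue to their right. Birc5 to Aurkb is 2.36 to 3.01 in T120D and 1.86 in wt, while the wt line lies within the T120D range for Cdca8 and Incenp over Aurkb.

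Genes that act beside the 10 were examined in 8 lists chosen by role, with earlier results of these data known. The shares set beside their counts are therefore descriptions and not tests of the lists. Together they held 116 tested genes, of which 19 were called higher and 0 lower in T120D by limma, beside 7.65% higher and 5.45% lower among all tested genes. At an unadjusted p under 0.05 these counts were 30 and 5, beside 15.2% and 13.4% of all tested genes. The median log2 difference over the 116 genes was 0.19. The number called depended on the fit: 8 were higher by limma without a trend, 7 when genes of low value were kept, and 12 without T120D line 3 or without line 15. Other kinases of this site and its neighbour on histone H3 were not called. Vprbp, which has also been described as a T120 kinase in human cells, averaged 5.08 ± 0.491 RPKM in T120D (SD, n = 4), against 5.24 RPKM in wt (limma adjusted p = 0.916). Gsg2, which encodes haspin, the kinase of the neighbouring mark on histone H3 that binds survivin, was at 5.53 ± 0.539 RPKM in T120D and 6.00 RPKM in wt (limma adjusted p = 0.76). Of the 16 tested genes in the list of haspin, this kinase and phosphatases, 1 was higher, Ppp2r5d, a regulatory subunit of PP2A (23.8 ± 1.89 RPKM in T120D, 16.6 RPKM in wt, log2 difference 0.49, limma adjusted p = 0.0483). Its call ended under 7 of 11 alternative settings, including leaving out line 3, 15 or 18 (limma adjusted p = 0.0861, 0.0895 and 0.0876). Ppp2r1a, the scaffold subunit of PP2A, had a log2 difference of 0.27 (limma adjusted p = 0.125).

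Some genes in the list of VRK partners and the nuclear envelope were called. The VRK genes themselves were not, but they rest on about 7 to 31 reads per line, where a difference could be missed. Of the 13 tested genes of this list, 4 were higher, beside 7.65% of all tested genes, and 0 lower, beside 5.45%. The other 9 were not called. Among these were Jun (log2 difference 0.27), Trp53 (0.16), Coil (0.12), Atf2 (-0.20) and Lmna (-0.24, with all 4 T120D lines below wt). Dusp3, a phosphatase that VRK3 binds, averaged 7.57 ± 1.36 RPKM in T120D (SD, n = 4), against 3.32 RPKM in wt (log2 difference 0.98, limma adjusted p = 0.0216). Banf1, which encodes BAF, the substrate of VRK1, was at 116 ± 4.84 RPKM in T120D and 85.9 RPKM in wt (0.43, limma adjusted p = 0.0197). The remaining called genes were the lamina genes Lmnb1 (0.87, limma adjusted p = 0.00318) and Tmpo (0.37, limma adjusted p = 0.0457). The calls of Dusp3 and Tmpo were lost when low genes were kept in the fit (limma adjusted p = 0.0887 and 0.0535), and those of Banf1 and Tmpo by limma without a trend (0.116 and 0.155). The call of Tmpo ended under 6 of 11 alternative settings in all, among them quantile normalization and leaving out line 3, 15 or 18 (limma adjusted p = 0.0764, 0.0898 and 0.086), and that of Lmnb1 under 0.

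In each of the checkpoint, kinetochore and cohesin lists 1 gene was called, a share near or below that of all tested genes (7.65% higher). Bub1b, whose product BUBR1 is the relative of BUB1 in the checkpoint, averaged 11.5 ± 1.07 RPKM in T120D (SD, n = 4), against 12.3 RPKM in wt, with a log2 difference of -0.10 (95% confidence interval -0.46 to 0.27; limma adjusted p = 0.741). Bub3, the common binding partner of both, had a log2 difference of -0.21 (limma adjusted p = 0.466). Ttk and Plk1, kinases that act with BUB1 at kinetochores, had log2 differences of 0.33 and 0.10 (limma adjusted p = 0.497 and 0.775). Among 13 checkpoint genes 1 was higher, Mad2l1, at 38.8 ± 4.57 RPKM in T120D and 22.5 RPKM in wt. Of 25 centromere and kinetochore genes 1 was higher, the centromeric histone gene Cenpa, at 31.0 ± 1.08 RPKM in T120D and 22.5 RPKM in wt. Of 15 cohesin genes 1 was higher, Cdca5, encoding sororin, which stabilises cohesin on chromatin, at 14.7 ± 1.83 RPKM in T120D and 7.89 RPKM in wt. Their limma adjusted p were 0.014, 0.0357 and 0.0166. Of 11 alternative settings, the call was lost under 2 for Mad2l1, under 4 for Cenpa (limma adjusted p = 0.0729 without line 3 and 0.0715 without line 15) and under 1 for Cdca5. The median log2 differences of these 3 lists were 0.10, 0.19 and -0.02.

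Genes that work with the passenger complex late in mitosis had the highest list median, 0.49, over 9 tested genes, of which 4 were higher, beside 7.65% of all tested genes, and 0 lower. Kif20a, a kinesin that carries the complex to the spindle midzone, averaged 14.1 ± 1.54 RPKM in T120D (SD, n = 4), against 6.97 RPKM in wt (log2 difference 0.92, limma adjusted p = 0.00886). Prc1, a bundling protein of the midzone, and Ect2 and Anln, which act in cytokinesis, had log2 differences of 0.63, 0.56 and 0.49 (limma adjusted p = 0.0166, 0.0429 and 0.0328). Of 11 alternative settings, 0 ended the call of Kif20a, 2 that of Prc1, and 5 each those of Ect2 and Anln. Ect2 was not called without line 3, 6 or 15 (limma adjusted p = 0.0868, 0.0581 and 0.0848), nor Anln without line 3, 15 or 18 (0.0594, 0.0502 and 0.0648). For 8 of the 9 genes all T120D lines lay above wt, as for 31.1% of all tested genes. Among 17 regulators of G2/M transcription, 4 were again higher, beside the same 7.65%, and 0 lower. Foxm1, an activator of late cell cycle genes including Birc5 and Aurkb, was at 44.0 ± 4.03 RPKM in T120D and 25.9 RPKM in wt (0.74, limma adjusted p = 0.00889). Mybl2, the B-MYB gene, was at 5.35 ± 0.992 RPKM in T120D and 2.18 RPKM in wt (0.98, limma adjusted p = 0.0253), and E2f7 and E2f1 had log2 differences of 0.73 and 0.66 (limma adjusted p = 0.0449 and 0.0266). The call of E2f7 was lost under 5 of 11 alternative settings and that of E2f1 under 3, including leaving out line 3, 15 or 18 for E2f7 (limma adjusted p = 0.071, 0.0791 and 0.086) and line 3 for E2f1 (0.0547). With low genes kept in the fit, Foxm1, Mybl2, E2f7, E2f1, Prc1 and Ect2 were no longer called.

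General markers of cycling cells were mixed. Of 8 proliferation markers, 3 were higher and 0 lower, beside 7.65% and 5.45% of all tested genes: Ccnd1, which encodes cyclin D1 (log2 difference 1.36, limma adjusted p = 0.000381), Cdk1, the main mitotic kinase gene (0.83, limma adjusted p = 0.00587), and Pcna (0.48, limma adjusted p = 0.0302), whose call ended under 3 of 11 alternative settings, including leaving out line 15 (limma adjusted p = 0.0558). Mki67, a marker of cells in cycle, averaged 41.2 ± 2.30 RPKM in T120D (SD, n = 4), against 39.9 RPKM in wt (0.05, 95% confidence interval -0.22 to 0.31; limma adjusted p = 0.834). Mki67 in wt thus lay within the T120D range of 37.8 to 42.6 RPKM. The remaining markers were not called either, with log2 differences of 0.30 for Ccnb1, 0.21 for Top2a, 0.05 for Ccna2 and -0.42 for Ccnb2. The part of the called proliferation markers in the differences of Bub1 and Birc5 was not tested.

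**Figure D5:**
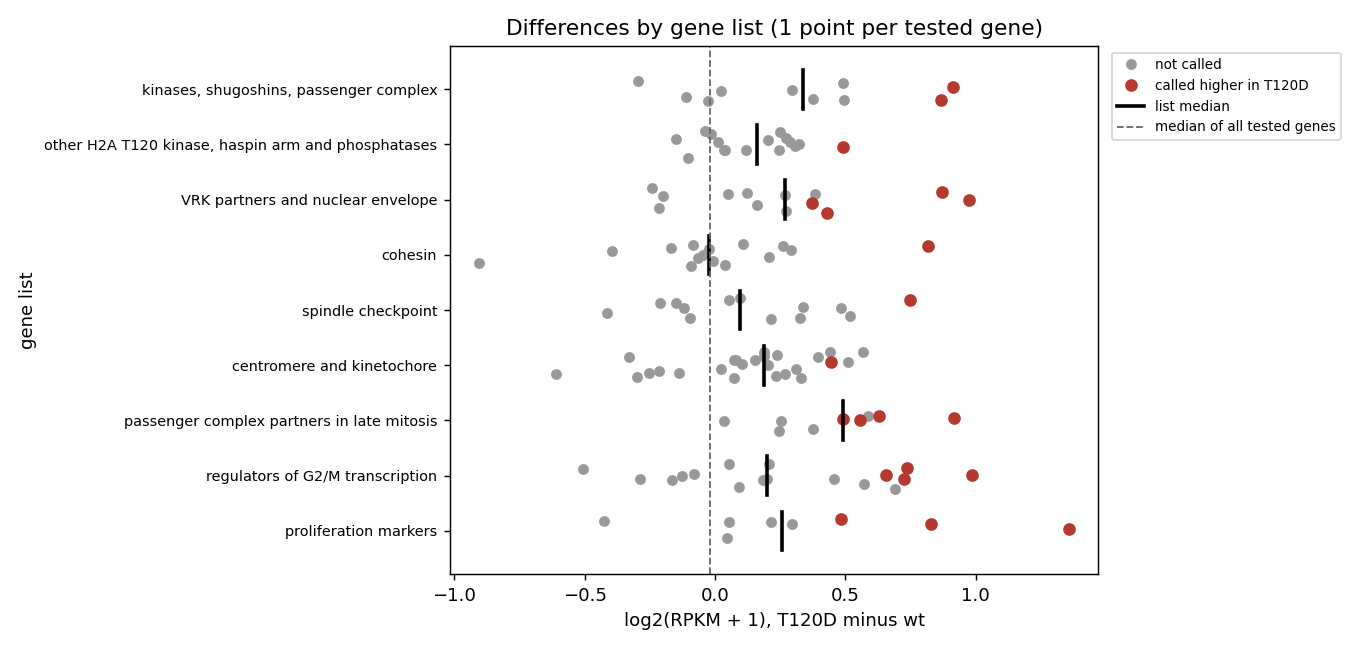
Log2(RPKM + 1) in T120D minus wt for each tested gene of the 10 described genes (top) and the 8 lists of related genes. Red points were called higher, grey points were not called, the black bar is the list median and the dashed line the median of all tested genes (-0.02). The median is highest for partners of the passenger complex in late mitosis (0.49), and the cohesin list is centred near 0.

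The genes most like Bub1 across the 5 lines were Procr, Mbtps2 and Kif20a, by the smallest distance between log2(RPKM + 1) profiles centred on each gene, among 6231 other genes that averaged at least 5 RPKM. Their distances were 0.13, 0.15 and 0.16, and like Bub1 they had their highest value in T120D line 18 (17.2, 12.8 and 15.8 RPKM). Nearest to Birc5 were Msn, which encodes the cytoskeletal linker moesin, Sipa1 and Samd4b, at distances of 0.05, 0.06 and 0.09. Msn was at 158, 128, 152 and 140.3 RPKM in T120D lines 3, 6, 15 and 18, against 77.6 RPKM in wt, the same order of lines as in Birc5. With 5 lines, such likeness rests largely on the distance of the wt line.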

How the data were processed

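RNA of 5 NIH/3T3 lines was sequenced from stranded mRNA libraries on a MiSeq, per the labels' protocols. For each line the authors deposited a table that lists the RPKM of 14454 gene symbols. The submitters' processing notes name Partek and the build mm9. The sources used here do not give the aligner, annotation, filters or strand setting. Reads of overlapping or related genes may therefore be shared.

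From the deposited RPKM, log2(RPKM + 1) was computed and genes averaging at least 1 RPKM were fitted with limma 3.58.1 (R 4.3.3), with an intensity trend, two-sided, 3 residual and 5.99 prior degrees of freedom, and Benjamini-Hochberg adjustment over all 10052 genes. The fit was tested on simulated data. There the wt values were drawn with the spread of the T120D lines, so a deviation of the single wt line was not covered. The 4 T120D lines were counted as 4 samples. Because wt has 1 line, adjusted p-values measure its distance against the spread of the T120D lines, which may be technical. Depth and reads per gene were estimated with GENCODE M21 transcript lengths and are approximate. Alternatives covered the pseudocount, filter, scaling, trend and leaving out each T120D line.

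Named genes were the 10 members, the 4 called genes with the highest absolute difference in each of 8 lists, 12 regulators and markers fixed by name, and the 3 nearest profiles to Bub1 and to Birc5. The members and lists were chosen with earlier results of these data known. Promoter windows came from RefSeq (GRCm38.p6).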

Additional observations from a re-analysis of the deposited data

Results flagged for a closer look

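Among 42 named genes whose 4 T120D lines were checked for a line far from the others, 1 was flagged, where chance flags about 1 in 20. Mki67 was at 37.8 RPKM in T120D line 3, while the other T120D lines had 41.9 to 42.6 RPKM and the wt line 39.9 RPKM. The gap from line 3 to its neighbour was 0.863 of the range of the 4 lines, above the critical value of 0.829.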

How the results depend on the processing

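Birc5 was called under all 11 alternatives, with log2 differences of 0.79 to 0.91, and Bub1 under all but the one that kept genes of low value, where 1 of the 10 genes was called higher. Leaving out each T120D line in turn gave 2 to 3 of the 10 called higher and 0 lower. Of the related genes in the lists, 7 were called higher when low genes were kept, 8 by limma without a trend, and 12 to 19 with a T120D line left out. With quantile normalization 1 of them (Cenpb) was called lower, and 0 to 2 with a line left out (Cenpb and Stag2, without line 6). Differences near 0 changed sign. With quantile normalization Vrk1 was at 0.059 and Mki67 at -0.039. With a T120D line left out, Vrk1 ranged from -0.085 to 0.021, Vrk2 from -0.23 to 0.0084, Sgol2 from -0.058 to 0.12 and Vprbp from -0.076 to 0.013. The cause was not tested. With a filter at a mean of 5 RPKM the VRK genes were not tested. No paired analysis was possible because the groups share no replicate number. Depth limits the VRK genes most, since they rest on few reads.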

Other observations

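Stag2 and Cenpb, named after their values were seen, were the listed genes with the lowest differences. Stag2, a cohesin subunit gene, was at 3.85, 6.84, 3.76 and 4.28 RPKM in T120D lines 3, 6, 15 and 18, against 9.41 RPKM in wt (log2 difference -0.90, limma adjusted p = 0.0649). Line 6 lay between the other T120D lines and wt. Cenpb, which encodes a protein that binds centromeric DNA, was at 37.9, 48.8, 33.8 and 46.4 RPKM in T120D lines 3, 6, 15 and 18, against 63.5 RPKM in wt (-0.61, limma adjusted p = 0.0644).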
